A study of Mus musculus with 24 samples.

Results

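The TOX family comprises 4 genes, Tox, Tox2, Tox3 and Tox4, which 8 of the 45037 non-control probe sets on the array measured: 3 for Tox, 2 for Tox2, 1 for Tox3 and 2 for Tox4. Every probe set with exactly 1 gene symbol, and that symbol one of these 4, was taken, and each was read separately. A probe set is a group of short oligonucleotides meant to read 1 transcript, and the suffix _s_at marks one whose oligonucleotides can match several transcripts. The family was selected on the Tox2 intensities of activated cells with 0.5 µM I-BET-762 and with Control-768, where the probe sets went different ways. That comparison, and each one that shares its arrays, is described without a test. The disagreement of the Tox2 probe sets was read over all 8 groups, so it is a description in resting cells too. The p-values of Tox2, in resting and in activated cells, are not independent of how the family was chosen.

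TOX proteins are nuclear factors that share a single HMG box, a domain that bends DNA. Tox is needed in the thymus for the CD4 lineage and in the development of innate lymphoid cells, and under persistent antigen receptor signalling, through calcineurin and NFAT, it rises and maintains T cell exhaustion. Tox2 is known from follicular helper T cells and natural killer cells and acts beside Tox in exhausted cells. Tox4 is a subunit of the PTW/PP1 phosphatase complex of chromatin and is broadly expressed, and Tox3 is best known from neurons and breast epithelium.

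RNA came from CD4+ T cells of C57BL/6 mice that carry the 2D2 transgenic T cell receptor, which recognises a myelin peptide, and all groups share this genotype and a first activation for 48 h, by antibodies to CD3 and CD28 in a Th1 medium, followed by 2 days of expansion. Activated cells had been restimulated with the same antibodies for 4 h, and resting cells had not. Each state was grown with the solvent DMSO, with the control compound Control-768, or with I-BET-762 at 0.25 µM or 0.5 µM, which gives 8 groups of 3 arrays. I-BET-762 inhibits BET bromodomain proteins, readers of acetylated histones. The dose of Control-768, and whether compounds were present during restimulation, are not given in the sources used here.

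The median intensity of an array lay between 37.4 and 44.4. The T cell markers Cd3e, Cd3d, Cd3g, Cd5, Cd28 and Cd2 had intensities of at least 908 on every array, and Cd4 lay between 364 and 1143. B cell markers were at most 42.1. Of the CD8 T cell markers, Cd8b1 lay between 320 and 859, and Cd8a between 50.95 and 124. Replicate number 3 deviated most in each state. The SD of its log2 deviations from group means averaged 0.256 in activated and 0.301 in resting cells, against 0.2 and 0.206 for numbers 1 and 2 in activated cells and 0.214 and 0.223 in resting cells. Values without the arrays of that number are given beside the results that they change.

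By mean intensity over the 24 arrays, the brightest Tox4 probe set (1416574_at) stood at 1642, above 91.5% of probe sets, and the other (1436049_at) at 359. The Tox probe sets stood at 356 (1425484_at), 96.0 (1425483_at) and 77.1 (1442039_at). Tox2 read 59.0 by 1440156_s_at and 19.9 by 1457757_at, and Tox3 read 9.34 by 1436600_at. On 23 of 24 arrays Tox3 lay under an intensity of 16, the constant added before taking logarithms, at the low end of the scale. Such means rank probe sets only, since intensities of different probe sets are not levels on a common scale.

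In resting cells, Tox was higher with I-BET-762 by all 3 of its probe sets. On 1425484_at the intensities of the arrays numbered 1, 2 and 3 were 426, 403 and 170 with DMSO, 408, 396 and 168 with Control-768, 616, 523 and 434 with 0.25 µM, and 675, 613 and 922 with 0.5 µM. Each of the 6 I-BET-762 arrays exceeded each of the 6 control arrays, which 0.566% of all probe sets also showed, and the DMSO and Control-768 arrays numbered 3 were the lowest. The mean log2 change of both doses against both controls was 0.97 ± 0.21 (SE; 95% confidence interval 0.53 to 1.41; adjusted p = 0.0275 by limma over all probe sets). As the RNA is from bulk samples, more RNA per cell and more cells that hold it cannot be told apart.

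The other Tox probe sets went the same way. Probe set 1425483_at read 120, 112 and 45.8 with DMSO, 81.6, 79.0 and 45.7 with Control-768, 161, 149 and 127 with 0.25 µM, and 202, 141 and 244 with 0.5 µM. Here too all 6 I-BET-762 arrays lay above all 6 control arrays, and the log2 change was 0.99 ± 0.19 (adjusted p = 0.00815). Probe set 1442039_at read 79.0, 78.2 and 40.1 with DMSO, 80.7, 72.6 and 41.0 with Control-768, 142, 118 and 75.8 with 0.25 µM, and 119, 125 and 234.2 with 0.5 µM. One I-BET-762 array, number 3 at 0.25 µM, fell among the controls, and the log2 change was 0.87 ± 0.18 (adjusted p = 0.0175). Across the 24 arrays the 3 probe sets followed each other, with Pearson's r between 0.933 and 0.974, a description of arrays that share their groups.

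**Figure D1:**
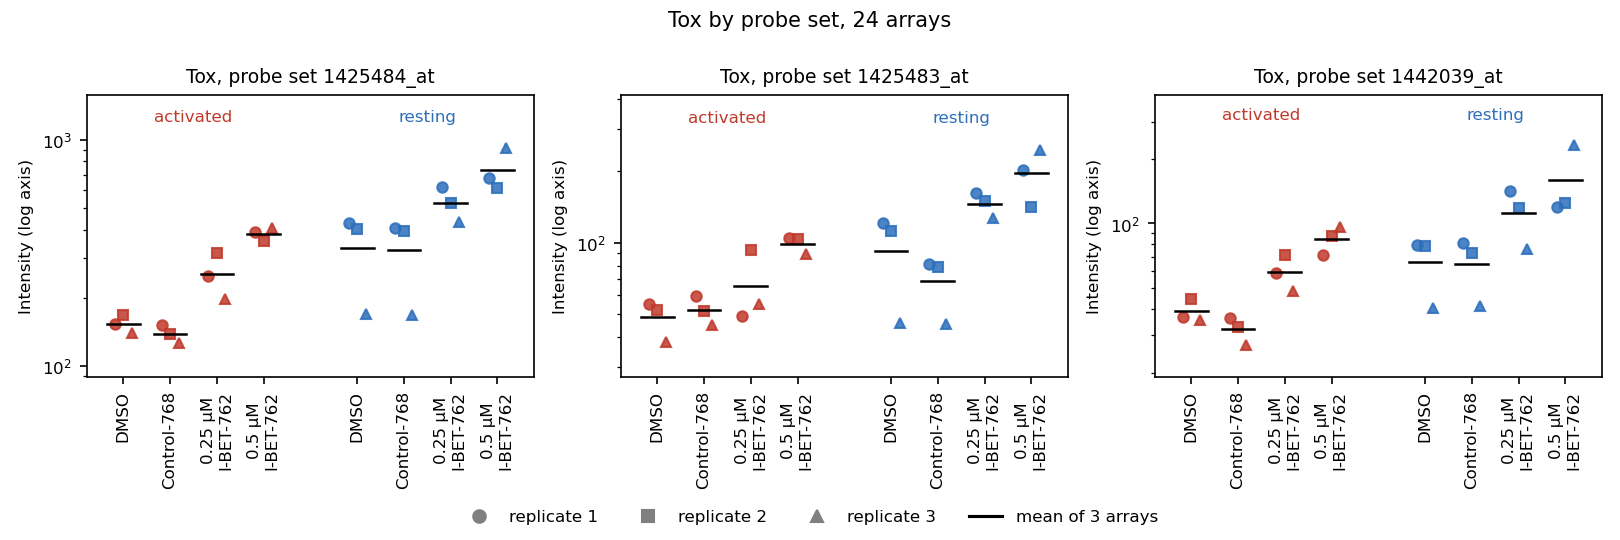
Intensity (log axis) of the 3 Tox probe sets on each of the 24 arrays, by state and treatment, with DMSO at the low end of the dose series. Points are arrays, their shapes replicate numbers, and bars the means of 3 arrays. On 1425484_at, resting cells given 0.5 µM I-BET-762 lie between 613 and 922, all above resting Control-768 and DMSO, and the resting control arrays numbered 3 are the lowest of the resting arrays.

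Of the 8 TOX family probe sets, 4 rose in resting cells with both doses against both controls: the 3 of Tox and 1440156_s_at of Tox2. Among all probe sets 0.346% rose and 0.999% changed in this comparison. These shares are a background for the 3 Tox probe sets only, since Tox2 was part of how the family was chosen. Without the arrays numbered 3 the Tox changes were smaller, at 0.55 (1425484_at, adjusted p = 0.00889), 0.66 (1425483_at, adjusted p = 0.0436) and 0.60 (1442039_at, adjusted p = 0.00564), all still past the threshold of 0.05. Leaving out any single array kept 1425483_at past the threshold (highest adjusted p = 0.03). The same step lost 1425484_at in 6 of 12 cases, with adjusted p = 0.0881 and 0.0582 without 0.25 µM arrays 1 and 2, 0.0516 and 0.0777 without 0.5 µM arrays 1 and 3, 0.057 without Control-768 array 3 and 0.0528 without DMSO array 3. It lost 1442039_at without 0.25 µM array 1 (adjusted p = 0.0653) or Control-768 array 3 (adjusted p = 0.0515). With the replicate number as a block, 1386 probe sets passed in place of 450, and the same 4 TOX family probe sets did. In a fit of only the groups compared 299 of all probe sets passed and 0 of the 4 did, with the same log2 changes and adjusted p = 0.218 (1425484_at), 0.0883 (1425483_at), 0.169 (1442039_at) and 0.0699 (Tox2 1440156_s_at).

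At the higher dose alone, 3 of 8 rose against Control-768, beside 0.264% of all probe sets that rose and 0.753% that changed. All 0.5 µM arrays lay above all Control-768 arrays on 4 of the 8, as they did on 6.33% of all probe sets. Here too the shares are a background for the Tox probe sets only, since both counts include Tox2 1440156_s_at. Tox 1425483_at changed by 1.32 ± 0.26 (adjusted p = 0.0159) and 1442039_at by 1.10 ± 0.26 (adjusted p = 0.0496). Tox 1425484_at, with the same separation of its arrays, had 1.22 ± 0.30 and missed the threshold (adjusted p = 0.0703), but passed with the replicate block (adjusted p = 0.0169). Its difference between same-numbered arrays was 0.71, 0.61 and 2.35 for numbers 1, 2 and 3. Without the arrays numbered 3 its change was 0.66 (adjusted p = 0.0277), that of 1425483_at 0.94 (adjusted p = 0.0513) and that of 1442039_at 0.58 (adjusted p = 0.0548).

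Each of these calls at 0.5 µM depended on single arrays. Adjusted p for 1425483_at was 0.0996 without Control-768 array 3, 0.0769 without 0.5 µM array 1 and 0.113 without 0.5 µM array 3. For 1442039_at it was 0.0694, 0.104 and 0.24 without Control-768 arrays 1, 2 and 3, and 0.0569 and 0.311 without 0.5 µM arrays 1 and 3. With the replicate block 1344 probe sets passed in place of 339, 4 of them of the TOX family. In a fit of only the groups compared 25 passed, with adjusted p = 0.281 for 1425483_at, 0.537 for 1442039_at and 0.161 for Tox2 1440156_s_at.

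At 0.25 µM against Control-768, 0 of 8 passed, where 0.04% of all probe sets did. The log2 changes of Tox were 0.75 ± 0.30 (1425484_at), 0.96 ± 0.26 (1425483_at) and 0.66 ± 0.26 (1442039_at), with adjusted p of at least 0.561. The step between the doses was 0.47, 0.36 and 0.44 in the same order, with adjusted p of at least 0.844, and 95% intervals that ran from -0.19 at the lowest to 1.10 at the highest. With the arrays numbered 3 left out, the changes at 0.25 µM were 0.48, 0.83 and 0.65 in the same order (adjusted p of at least 0.134), and the step between the doses was 0.18, 0.11 and -0.07 (adjusted p of at least 0.957). The step thus shrank on all 3 probe sets and changed sign on 1442039_at. With the replicate block 82 probe sets passed at 0.25 µM in place of 18, still 0 of them of the TOX family.

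Between Control-768 and DMSO in resting cells no TOX family probe set passed. For Tox the log2 differences were -0.03 ± 0.30 (1425484_at; 95% interval -0.66 to 0.60), -0.30 ± 0.26 (1425483_at; -0.85 to 0.24) and -0.01 ± 0.26 (1442039_at; -0.55 to 0.52). By limma, 0 of the 45037 probe sets (0%) passed in this comparison, and 1125 had an unadjusted p under 0.05. Without the arrays numbered 3 the difference on 1425483_at was -0.46 (adjusted p = 1).

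**Figure D2:**
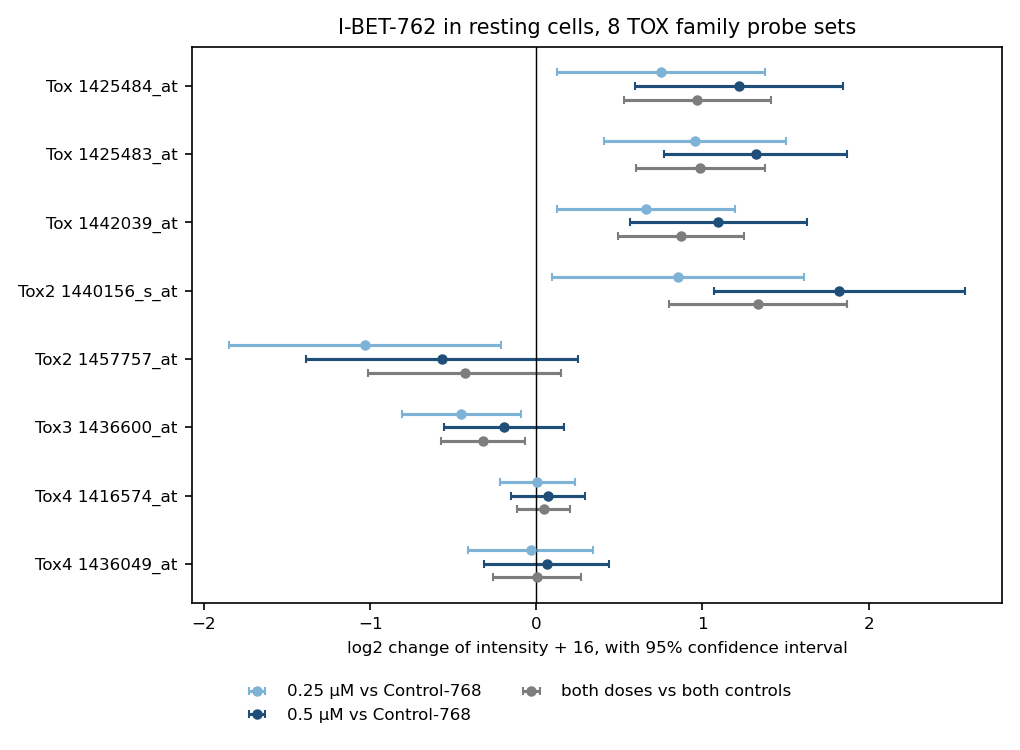
Log2 change of intensity + 16 in resting cells for each of the 8 TOX family probe sets, with 95% confidence intervals from the fit over all arrays, for 0.25 µM and 0.5 µM I-BET-762 against Control-768 and for both doses against both controls. The 3 Tox probe sets and Tox2 1440156_s_at lie above 0 in all 3 comparisons, the other Tox2 probe set and Tox3 lie below 0, and both Tox4 probe sets lie near 0.

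Markers of other cells are given beside these results. In resting cells the summed intensity of 2 CD8 T cell markers ranged from 458 to 632 with 0.25 µM and from 527 to 600 with 0.5 µM, against 412 to 594 with Control-768 and 479 to 601 with DMSO. The 4 measured NK cell markers summed to between 112 and 124 with 0.25 µM and between 106 and 179 with 0.5 µM. They summed to between 117 and 150 with Control-768 and between 120 and 129 with DMSO. The 7 CD4 T cell markers summed to between 29821 and 36729 with 0.5 µM, above the 27015 to 28496 of Control-768 and the 27276 to 28485 of DMSO. With 0.25 µM they summed to between 26866.5 and 29883, which overlaps both controls. What part any of these has in the Tox values was not tested.

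Tox2 gave different answers by its 2 probe sets. RefSeq lists 5 transcription start windows for Tox2 on the plus strand of chromosome 2 in build GRCm38.p6, 3 of which begin within 1059 bases of each other. The other 2 begin 22326 and 22327 bases after the first window. The 250 bases before the first and the last of these starts are printed because they show how far apart the listed starts of this gene lie; which transcripts each probe set reads was not analysed here. Capitals mark the NFAT core letters GGAAA on either strand, here as TTTCC. This core is in 55.6% of 32851 mouse windows of the same length, and the AP-1 letters TGANTCA, found in neither window, are in 6.75%.
Tox2 first start, chr2:163202877-163203126: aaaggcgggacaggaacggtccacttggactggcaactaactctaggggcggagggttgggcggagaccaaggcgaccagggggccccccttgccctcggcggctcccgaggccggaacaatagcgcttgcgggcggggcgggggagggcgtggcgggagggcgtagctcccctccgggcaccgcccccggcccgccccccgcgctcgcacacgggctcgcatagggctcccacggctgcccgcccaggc
Tox2 last start, chr2:163225204-163225453: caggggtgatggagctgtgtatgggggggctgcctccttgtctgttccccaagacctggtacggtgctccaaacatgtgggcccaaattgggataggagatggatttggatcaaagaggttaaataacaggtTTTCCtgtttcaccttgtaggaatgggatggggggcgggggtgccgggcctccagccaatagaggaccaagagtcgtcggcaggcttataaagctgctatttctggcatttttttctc

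The first window held 75.2% G and C and 0 matches to either motif, and the last held 52.8% G and C and 1 NFAT core match. A match describes letters only. For Tox the promoter table has no entry, and Tox is described by its values alone.

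Probe set 1440156_s_at of Tox2 rose with I-BET-762 in resting cells. It read 32.2, 9.12 and 35.2 with DMSO, 24.7, 17.1 and 29.2 with Control-768, 91.8, 22.8 and 69.8 with 0.25 µM, and 171, 79.7 and 135 with 0.5 µM. All 0.5 µM arrays lay above all control arrays, the array numbered 2 was the lowest of its group at each treatment, and the 0.25 µM array numbered 2 fell among the controls. The log2 change of both doses against both controls was 1.33 ± 0.26 (95% interval 0.80 to 1.87; adjusted p = 0.00961), and at 0.5 µM against Control-768 it was 1.82 ± 0.36 (adjusted p = 0.0158), with 128.6 ± 46.0 against 23.7 ± 6.16 (mean intensity ± SD, n = 3 each).

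The size of the Tox2 change did not rest on the arrays numbered 3, although its call did: without them it was 1.38 for both doses (adjusted p = 0.0999) and 1.87 at 0.5 µM (adjusted p = 0.139). With the replicate block the adjusted p was 1.39e-05 for both doses and 2.29e-05 at 0.5 µM. With any single array left out, the adjusted p for both doses was at most 0.0381. None of these p-values of Tox2 is independent of how the family was chosen. At 0.5 µM adjusted p was 0.0649 and 0.0945 without Control-768 arrays 1 and 2, and 0.1 and 0.0786 without 0.5 µM arrays 1 and 3.

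Tox2 by 1440156_s_at had the widest gap between the doses of the 8 probe sets in resting cells. The 0.5 µM arrays exceeded the 0.25 µM arrays by 0.97 ± 0.36 on the log2 scale (adjusted p = 0.792), which passed only with the replicate block (adjusted p = 0.0311), where 203 probe sets passed in place of 19. Without the block 0 of 8 TOX family probe sets passed in this step, and 0.0422% of all probe sets did. Against Control-768, the lower dose gave 0.85 ± 0.36 (adjusted p = 1) and the higher dose the 1.82 above.

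Probe set 1457757_at of Tox2 showed no such rise. It read 28.1, 21.5 and 8.54 with DMSO, 20.6, 60.0 and 51.4 with Control-768, 30.7, 7.46 and 3.99 with 0.25 µM, and 31.2, 17.5 and 20.5 with 0.5 µM. The groups overlap, the 2 highest resting values are Control-768 arrays, and 8 of the 24 arrays in both states lie under 16. Its log2 change was -0.43 ± 0.28 for both doses (95% interval -1.01 to 0.15; adjusted p = 0.792) and -0.57 ± 0.39 at 0.5 µM against Control-768 (adjusted p = 0.759). Control-768 exceeded DMSO by 0.74 ± 0.39 (95% interval -0.08 to 1.55). Mean log2 values were 5.84 with Control-768, 5.27 with 0.5 µM, 5.10 with DMSO and 4.81 with 0.25 µM. The lower value at 0.5 µM thus held against Control-768 and not against DMSO.

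How far the Tox2 probe sets parted in the resting arrays is given as a description. The log2 value of 1440156_s_at minus that of 1457757_at averaged 1.60 ± 0.55 on 6 I-BET-762 arrays and -0.17 ± 0.79 on 6 control arrays (SD). This is a difference of 1.77, and with the numbers 1, 2 and 3 left out in turn it was 1.92, 1.64 and 1.73. Over all 24 arrays the Tox2 probe sets had r = -0.126.

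**Figure D3:**
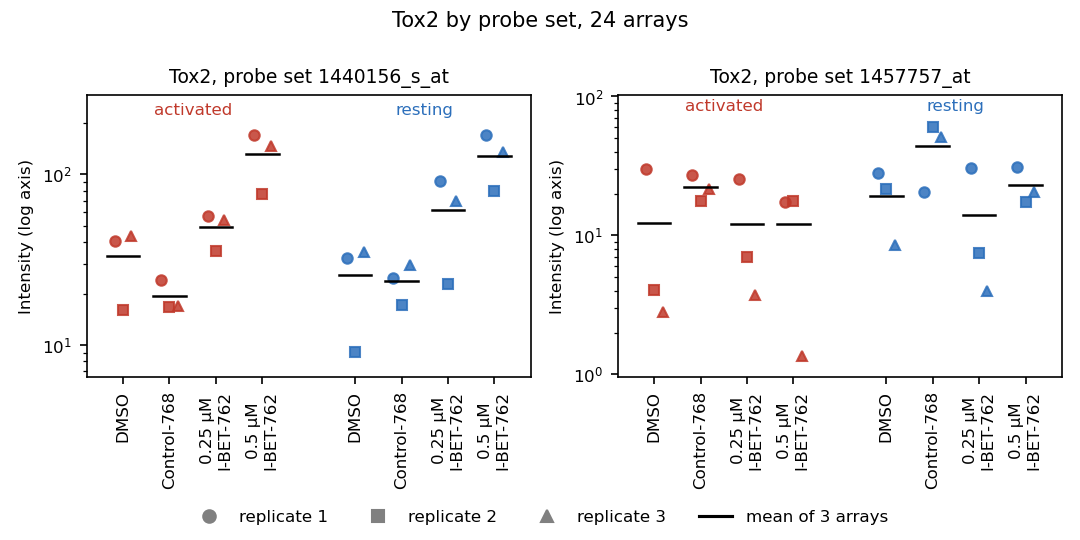
Intensity (log axis) of the 2 Tox2 probe sets on each of the 24 arrays, by state and treatment, with DMSO at the low end of the dose series. Points are arrays, their shapes replicate numbers, and bars the means of 3 arrays. Probe set 1440156_s_at reaches 171 with 0.5 µM I-BET-762 in each state, and 1457757_at stays at or under 60.0 on all arrays with no order by dose.

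In activated cells, where the disagreement was noted, Tox2 by 1440156_s_at read 40.4, 15.95 and 43.6 with DMSO, 24.0, 16.6 and 17.0 with Control-768, 57.4, 35.7 and 54.0 with 0.25 µM, and 171, 77.1 and 146 with 0.5 µM. Between 0.5 µM and Control-768 this is a log2 difference of 2.01 ± 0.36 (SE), and between 0.5 µM and DMSO 1.57 ± 0.36. Probe set 1457757_at read 17.5, 17.6 and 1.35 with 0.5 µM, against 27.1, 17.8 and 21.7 with Control-768, a difference of -0.50 ± 0.39. Against DMSO, whose arrays read 30.3, 4.03 and 2.83, the same 0.5 µM arrays differed by 0.05 ± 0.39. The opposite direction of the second probe set in activated cells held against Control-768 and not against DMSO.

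Tox in activated cells followed the same order of treatments on 1425484_at as in resting cells. On 1425484_at the activated arrays read 154, 168 and 140 with DMSO, 153, 139 and 126 with Control-768, 251, 317 and 198 with 0.25 µM, and 389, 357 and 407 with 0.5 µM. The doses did not overlap each other or the controls, and DMSO and Control-768 overlapped. Of all probe sets, 4.84% lay wholly higher with 0.5 µM than with 0.25 µM. Against DMSO and Control-768, 4.67% and 5.14% lay wholly higher with 0.25 µM. The described log2 differences between 0.5 µM and Control-768 were 1.37 ± 0.30 (1425484_at), 0.76 ± 0.26 (1425483_at) and 1.07 ± 0.26 (1442039_at). In that comparison 0.424% of all probe sets passed. The arrays did not overlap on 5 of the 8 probe sets: the 3 of Tox and Tox2 1440156_s_at were higher with 0.5 µM, as were 6.09% of all probe sets, and Tox2 1457757_at was lower, as were 4.88%. The family was chosen on both Tox2 probe sets in this comparison, so their separation and the count of 5 are not evidence of enrichment. The shares of all probe sets given here are a background for the 3 Tox probe sets only.

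Of the I-BET-762 comparisons in activated cells, 0.25 µM against DMSO shares no arrays with 0.5 µM against Control-768. The Tox2 disagreement was read over all 8 groups, so the p-values of Tox2 here are not independent of how the family was chosen. There 0 of 8 TOX family probe sets passed, and 0.0377% of all probe sets did. Tox 1425484_at had 255 ± 59.7 against 154 ± 14.0 (mean intensity ± SD), a log2 change of 0.65 ± 0.30 (adjusted p = 1; unadjusted p = 0.0418). Tox 1425483_at had 0.32 ± 0.26, Tox 1442039_at 0.45 ± 0.26 and Tox2 1440156_s_at 0.44 ± 0.36, all with adjusted p = 1. With the replicate block 86 probe sets passed in place of 17, 0 of them of the TOX family.

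Whether the change with 0.25 µM against DMSO differed between activated and resting cells was tested as an interaction. The difference for Tox 1425484_at was -0.06 ± 0.43 (95% interval -0.95 to 0.82), for 1425483_at -0.33 ± 0.37 and for 1442039_at -0.19 ± 0.36, and for Tox2 1440156_s_at -0.41 ± 0.51, all with adjusted p = 1. With the arrays numbered 3 left out, the Tox differences were 0.31, -0.09 and -0.10 in the same order (adjusted p = 1), so that of 1425484_at changed sign. By limma, 0 of 45037 probe sets (0%) passed, and 1204 had an unadjusted p under 0.05.

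Tox was lower in restimulated cells, past the threshold on 1 of its 3 probe sets under DMSO and 2 under 0.25 µM I-BET-762. Under DMSO, 1425484_at read 154 ± 14.0 in activated cells and 333 ± 142 in resting cells (mean intensity ± SD, n = 3 each), a log2 change of -0.94 ± 0.30 (adjusted p = 0.0381). Every activated array lay below every resting array, as on 15.2% of all probe sets. The same direction was seen on 1425483_at (-0.68 ± 0.26, adjusted p = 0.0906) and 1442039_at (-0.54 ± 0.26, adjusted p = 0.176), which missed the threshold. In this comparison 2 of 8 TOX family probe sets fell, beside 7.25% of all probe sets that fell and 15.8% that changed. The 2 were Tox 1425484_at and Tox4 1416574_at.

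With the arrays numbered 3 included, the Tox difference was smaller than without them. The resting DMSO array numbered 3 read 170 on 1425484_at, near the activated arrays, and the difference between same-numbered arrays was -1.38, -1.19 and -0.25 for numbers 1, 2 and 3. Between states the numbers were not taken as pairs, so these are differences of single arrays and not paired effects. Without the arrays numbered 3, all 3 Tox probe sets fell, with log2 changes of -1.28 (1425484_at, adjusted p = 8.41e-05), -0.92 (1425483_at, adjusted p = 0.00897) and -0.75 (1442039_at, adjusted p = 0.00205). With every array kept but one, 1425484_at had adjusted p = 0.0909, 0.0626 and 0.12 without activated arrays 1, 2 and 3, and 0.18 and 0.159 without resting arrays 1 and 2. In a fit of only the groups compared adjusted p was 0.11 for 1425484_at. Probe set 1425483_at passed without resting array 3 (-1.04, adjusted p = 0.00671).

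Under 0.25 µM I-BET-762, Tox intensities were likewise lower in activated cells. The log2 changes were -1.0 ± 0.30 (1425484_at, adjusted p = 0.0369), -1.01 ± 0.26 (1425483_at, adjusted p = 0.0175) and -0.73 ± 0.26 (1442039_at, adjusted p = 0.0737), and on all 3 every activated array lay below every resting array, as on 13.9% of all probe sets. In this comparison 3 of 8 TOX family probe sets fell, beside 4.43% of all probe sets that fell and 10.5% that changed. Without the arrays numbered 3, Tox fell on all 3 probe sets, with log2 changes of -0.97 (adjusted p = 0.000788), -1.02 (adjusted p = 0.00776) and -0.85 (adjusted p = 0.0017) in the same order.

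These calls also moved with single arrays. Adjusted p for Tox 1425484_at was 0.0948 and 0.165 without activated arrays 1 and 3, and 0.121, 0.0882 and 0.0535 without resting arrays 1, 2 and 3. For Tox 1425483_at it was 0.0896 and 0.0802 without activated arrays 1 and 3, and 0.0591 and 0.0522 without resting arrays 1 and 2. Tox 1442039_at passed without resting array 3 (adjusted p = 0.0414).

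The described state differences had the same sign elsewhere. Under Control-768 they were -1.04 ± 0.30, -0.29 ± 0.26 and -0.72 ± 0.26 for 1425484_at, 1425483_at and 1442039_at, and under 0.5 µM I-BET-762 -0.89 ± 0.30, -0.85 ± 0.26 and -0.75 ± 0.26. Tox2 showed no such fall by 1440156_s_at: activated minus resting was 0.26 ± 0.36 under DMSO (adjusted p = 0.719) and -0.15 ± 0.36 under 0.25 µM (adjusted p = 0.87). By 1457757_at it was -0.41 ± 0.39 and -0.07 ± 0.39.

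Together, the 8 group means of Tox 1425484_at ran from 737 in resting cells with 0.5 µM I-BET-762, through 524 in resting cells with 0.25 µM, 384 in activated cells with 0.5 µM, 333 and 324 in resting cells with DMSO and Control-768, and 255 in activated cells with 0.25 µM, to 154 and 139 in activated cells with DMSO and Control-768. Neighbours in that order overlapped array by array except at 2 steps: resting 0.25 µM lay wholly above activated 0.5 µM, and activated 0.25 µM wholly above activated DMSO. Tox2 1440156_s_at was ordered by treatment instead, with 131 and 129 at 0.5 µM in activated and resting cells, 61.5 and 49.0 at 0.25 µM in resting and activated cells, and between 19.2 and 33.3 in the controls, and every pair of neighbours overlapped.

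**Figure D4:**
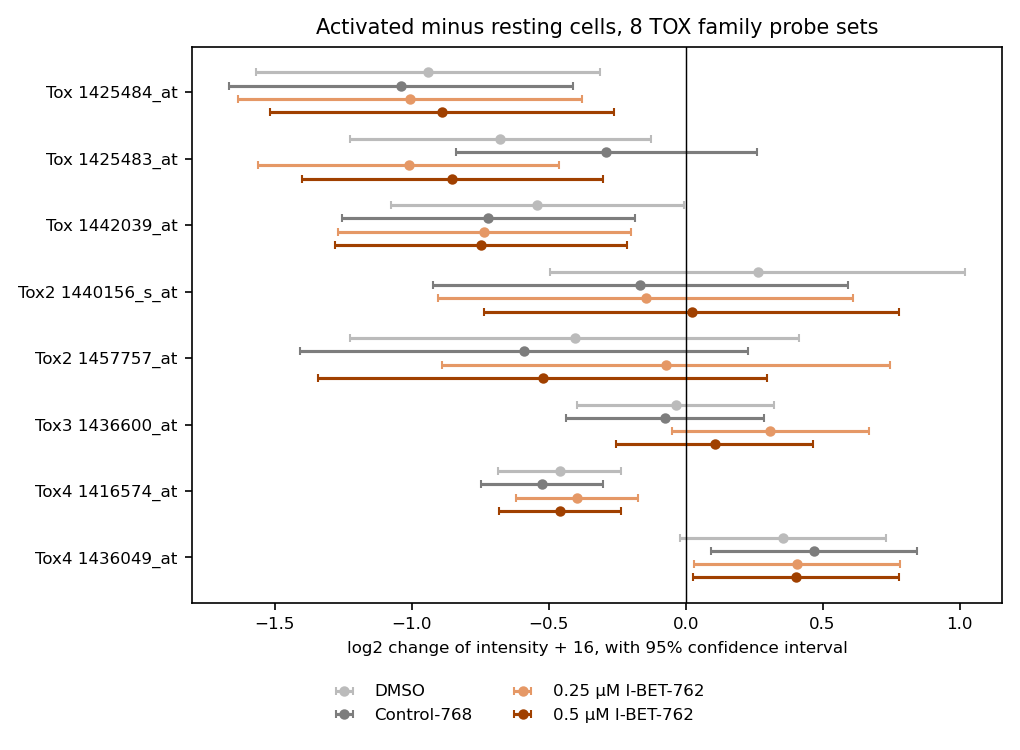
Log2 change of intensity + 16, activated minus resting, for each of the 8 TOX family probe sets under each treatment, with 95% confidence intervals from the fit over all arrays. The 3 Tox probe sets lie below 0 under all treatments, Tox2 1440156_s_at lies around 0, and the 2 Tox4 probe sets lie on opposite sides of 0.

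Markers of other cells moved with the state. Under DMSO the 2 CD8 T cell markers summed to between 653 and 861 in activated cells and between 479 and 601 in resting cells. The 4 NK cell markers summed to between 263 and 459 in activated cells and between 120 and 129 in resting cells, and among them Eomes, which activated T cells express too, averaged 284 ± 101 and 40.5 ± 6.67. The 4 epithelial markers summed to between 158 and 441 in activated cells and between 118 and 161 in resting cells, and Epcam reached 371 on the highest of the 24 arrays. B cell markers stayed at or under 42.1. The part of these in the Tox values was not tested.

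No Tox4 probe set passed with I-BET-762, and between the states its probe sets had changes of opposite sign. With both doses against both controls in resting cells, 1416574_at changed by 0.04 ± 0.08 (95% interval -0.11 to 0.20; adjusted p = 0.965) and 1436049_at by 0.01 ± 0.13 (-0.26 to 0.27; adjusted p = 1). In activated cells 0.25 µM against DMSO gave 0.08 ± 0.11 and 0.00 ± 0.18. These intervals exclude a change of the size seen for Tox in resting cells.

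Between the states, 1416574_at read 1145, 1455 and 1482 in activated cells and 1890, 1907 and 1799 in resting cells under DMSO. Every activated array lay below every resting array, as on 15.2% of all probe sets. The log2 change was -0.46 ± 0.11 under DMSO (adjusted p = 0.00575), and -0.40 ± 0.11 under 0.25 µM (adjusted p = 0.0218). Without the arrays numbered 3 the change was -0.55 under DMSO (adjusted p = 0.00871) and -0.40 under 0.25 µM (adjusted p = 0.0527). The call under DMSO stood whichever array was left out (highest adjusted p = 0.0468). Under 0.25 µM it was lost without activated arrays 1 and 3 (adjusted p = 0.0773 and 0.0676) and resting arrays 2 and 3 (0.0858 and 0.0578). A fit of only the groups compared ended both calls, with adjusted p = 0.0709 under DMSO and 0.072 under 0.25 µM.

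The second Tox4 probe set, 1436049_at, read 355, 428 and 407 in activated cells and 316, 360 and 251 in resting cells under DMSO, a log2 change of 0.35 ± 0.18 (adjusted p = 0.214), and 0.41 ± 0.18 under 0.25 µM (adjusted p = 0.171). Neither passed the threshold. Over the 24 arrays the Tox4 probe sets had r = -0.695, and around the group means r was -0.07. The difference between the 2 probe sets was not tested, and which Tox4 transcripts each reads was not analysed here.

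Tox3, a neuronal member of the family, stayed at the low end of the scale. Its highest intensity on any array was 16.2, in a resting Control-768 array, and its lowest 1.51, in a resting 0.25 µM array. The log2 change for both doses against both controls in resting cells was -0.32 ± 0.12 (adjusted p = 0.397).

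**Figure D5:**
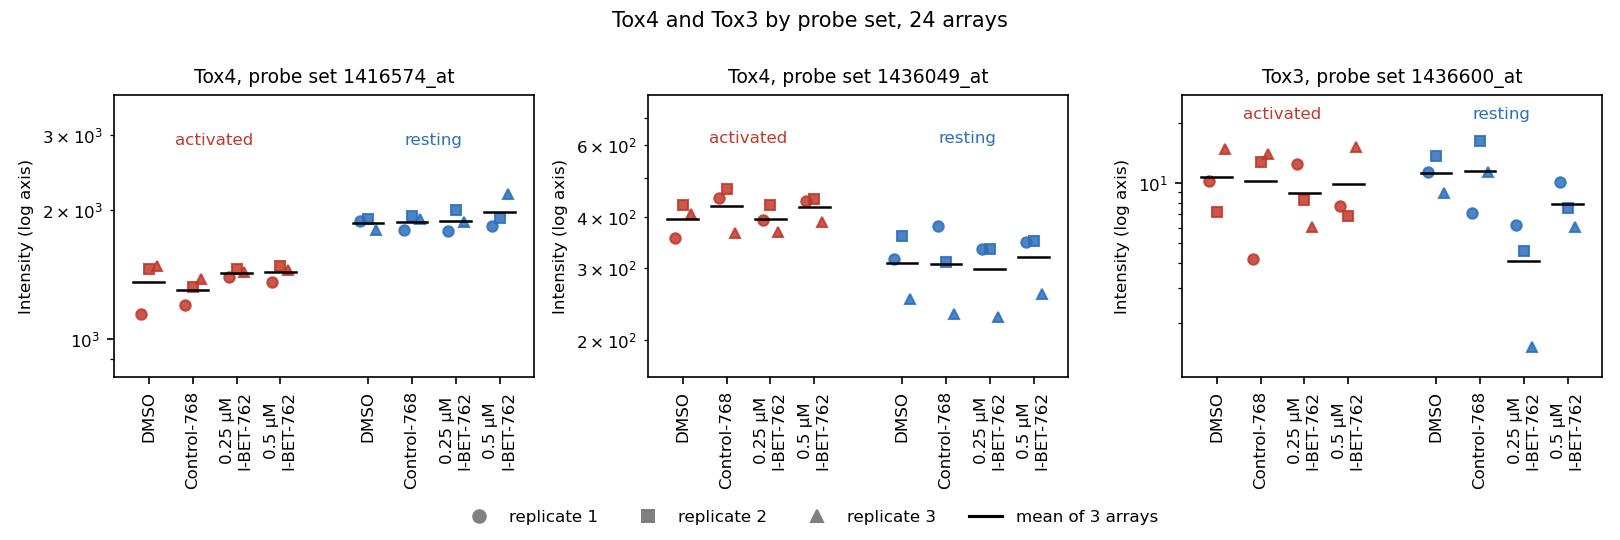
Intensity (log axis) of the 2 Tox4 probe sets and the Tox3 probe set on each of the 24 arrays, by state and treatment, with DMSO at the low end of the dose series. Points are arrays, their shapes replicate numbers, and bars the means of 3 arrays. Activated cells lie below resting cells on Tox4 1416574_at and mostly above them on 1436049_at, and Tox3 stays at or under 16.2.

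The partners of the family were read from lists. With both doses against both controls in resting cells 0.346% of all probe sets rose and 0.653% fell, and with restimulation under DMSO 8.57% rose and 7.25% fell. These shares are over all probe sets, whereas each list gene was read by its brightest probe set, so they are not a like background. In a fit with 1 probe set per gene, 3799 of 18193 changed with restimulation under DMSO. Of 9 measured exhaustion and inhibitory receptors listed as linked to Tox, 2 rose and 0 fell in resting cells with both doses against both controls. They were Lag3, an inhibitory receptor for MHC class II (2.02 ± 0.16, adjusted p = 1.99e-07), and Btla, which dampens T cell activation (0.49 ± 0.09, adjusted p = 0.00766). Whether Tox has a part in them was not tested. Lag3 read 1340 ± 842 with I-BET-762 and 274 ± 48.1 in the controls (mean intensity ± SD, n = 6 each). The median log2 change of the list was 0.14, beside 0.00 for all probe sets, and the count stayed at 2 without the arrays numbered 3 and was 4 with the replicate block. With restimulation under DMSO 4 of the 9 rose, beside 8.57% of all probe sets, among them Cd200 (1.13 ± 0.17, adjusted p = 0.000213), Btla (0.58 ± 0.13, adjusted p = 0.00464) and Pdcd1, which encodes PD-1 (1.77 ± 0.41, adjusted p = 0.00573), while Tox fell.

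Of 11 measured genes in a list of NFAT, calcineurin and NR4A genes, 0 passed with I-BET-762 in resting cells. Not every gene of the list is known to drive Tox. The 1 with the smallest p was Ppp3ca, a calcineurin subunit (0.54 ± 0.18, adjusted p = 0.265), and 2 rose with the replicate block. With restimulation under DMSO 2 rose, Nfat5 (1.5 ± 0.19, adjusted p = 4.18e-05) and the nuclear receptor Nr4a3 (3.95 ± 0.75, adjusted p = 0.00125), and 1 fell, Nfatc3 (-0.41 ± 0.11, adjusted p = 0.0125). With the arrays numbered 3 left out, 3 rose and 2 fell. The list median was 0.30 there, beside 0.01 for all probe sets.

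Of 13 measured CD4 lineage and thymic selection factors, the setting of Tox in the thymus, 0 passed with I-BET-762 in resting cells (median -0.07; 1 rose and 1 fell without the arrays numbered 3), and with restimulation Zbtb7b, which specifies CD4 cells, fell by 1.03 ± 0.24 on the log2 scale (adjusted p = 0.00573). Of 9 innate lymphoid and NK development factors, 1 rose with I-BET-762, Tbx21, the Th1 factor T-bet (0.74 ± 0.10, adjusted p = 0.000219). When the arrays numbered 3 were left out, 3 of the 9 rose and 1 fell. With restimulation 2 rose, Tbx21 (1.59 ± 0.14, adjusted p = 9.43e-07) and Eomes (2.35 ± 0.34, adjusted p = 0.000133), and 2 fell, among them Nfil3, needed for innate lymphoid precursors (-1.82 ± 0.48, adjusted p = 0.0124).

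Of 11 measured follicular helper genes, the setting of Tox2, Maf fell in resting cells with I-BET-762 (-1.67 ± 0.27, adjusted p = 0.00176) and Batf rose (0.62 ± 0.14, adjusted p = 0.0303; adjusted p = 0.12 without the arrays numbered 3). With restimulation 8 of 11 rose, beside 8.57% of all probe sets, among them Batf (2.24 ± 0.20, adjusted p = 1.04e-06) and Il21, a cytokine of these cells (2.79 ± 0.38, adjusted p = 9.06e-05). Neither Tox2 probe set passed with restimulation.

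The rest of the HMG-box genes and the partners of Tox4 did not pass with I-BET-762. Of 19 measured other HMG-box genes, 0 passed in resting cells, the smallest p being that of Sox12 (-0.44 ± 0.14, adjusted p = 0.206). With restimulation 4 of the 19 changed, near the 15.8% of all probe sets that did: 2 rose and 2 fell, among them Ubtf of ribosomal RNA transcription (0.90 ± 0.17, adjusted p = 0.0013), Cic (-0.48 ± 0.13, adjusted p = 0.0182) and Bbx (-0.65 ± 0.19, adjusted p = 0.0216). Of the 5 PTW/PP1 genes, 0 passed in resting cells, and with restimulation Ppp1r10, the targeting subunit PNUTS, rose by 1.22 ± 0.26 (adjusted p = 0.00265), while Tox4 1416574_at fell.

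Among 14759 bright probe sets of other genes, those that followed Tox 1425484_at most closely over the 24 arrays were of Ubac2 (r = 0.942), Cept1 (r = 0.92), Prkcb, a protein kinase C (r = 0.918), and Naglu, a lysosomal enzyme (r = 0.917). Tox2 1440156_s_at was followed by Slc44a1, a choline transporter (r = 0.901), Lag3 (r = 0.874), Vcl (r = 0.871) and Aplp2 (r = 0.868). Tox4 1416574_at was followed by Lca5 (r = 0.968), Mdh1 (r = 0.959), Prorsd1 (r = 0.958) and Nit1 (r = 0.948). For Tox3 the closest was Ssbp3 at r = 0.57, which was 0.081 over the 16 arrays left without number 3. These r describe arrays that share 8 groups and a scale.

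The genes next to Tox and Tox2 on their chromosomes, chosen after the data were seen, were also read. Of 12 measured neighbours, 3 on each side of each gene, 0 passed in resting cells with both doses against both controls (lowest adjusted p = 0.711). They include Nsmaf, Sdcbp, Rab2a and Chd7 beside Tox, and Ift52, Mybl2 and Oser1 beside Tox2. With restimulation under DMSO, Ift52 fell (-0.88 ± 0.16, adjusted p = 0.00113) and none of the 6 neighbours of Tox passed.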

How the data were processed

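Per the labels' protocols, total RNA from 2D2 CD4+ T cells was amplified, labelled with biotin and hybridized to an array, whose probe set names have the Affymetrix form. The deposited values are linear intensities for 45101 probe sets on 24 arrays; the authors' summarization and normalization are not given in the sources used here. The 64 control probe sets were left out, which leaves 45037. A platform table gave 34945 of them 1 gene symbol, 932 several and 9160 none. Values were taken as log2(intensity + 16) from the deposited intensities, and 1 linear model with 8 group means was fitted to all 24 arrays in limma 3.58.1 (R 4.3.3), with empirical Bayes moderation (16 residual and 3.66 prior degrees of freedom), two-sided tests and Benjamini-Hochberg adjustment over all 45037 probe sets. The procedure was tested on simulated data. The number of arrays limits the precision: a log2 change between 3 and 3 arrays had a median 95% half-width of 0.405, and 0.287 between 6 and 6.

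The series' design text calls the samples biological replicates, and neither it nor the labels say whether equal numbers share animals or cultures. Deviations from the group means correlated between same-numbered arrays within a state (r 0.178 to 0.493 in activated and 0.199 to 0.646 in resting cells), so the numbers were taken to pair arrays within a state, and results are also given with the replicate number as a block where that changes a call or moves a count by over 1.5 times. Arrays with different numbers had r -0.368 to 0.164 in activated and -0.46 to 0.231 in resting cells. Between states r was lower, from -0.028 to 0.242 for equal numbers (median 0.096), beside a median of -0.046 for different numbers. There the numbers were not taken as pairs, although these values do not exclude some shared structure.

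The members and the gene lists were chosen with earlier results of these data known. Named are all TOX family probe sets, whatever their values, and from each list, per tested comparison, up to 3 genes that passed, by ascending adjusted p, or where none passed the lowest-p gene, each gene by its brightest probe set. The 4 genes most like the brightest probe set of each member by Pearson's r were also named. Neighbouring genes were chosen after the data were seen. Promoter sequences are from RefSeq (GRCm38.p6). Intensities do not compare between probe sets. A planned permutation test of the difference between the Tox2 probe sets is not reported, because the family was chosen for that disagreement.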

Additional observations from a re-analysis of the deposited data

How the results depend on the processing

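Of 1185 values of TOX family probe sets under other settings, 1110 kept their side of the threshold, 60 lost their call and 15 gained one. Among the 1110, 71 values that passed in neither case had the other sign, and 0 called values changed sign. The count of TOX family probe sets past the threshold moved as follows. For 0.5 µM against Control-768 in resting cells (3 of 8) it was 1 with an added constant of 1, 1 without probe sets suffixed _s_at, _x_at or _a_at, 0 in a fit of the compared groups alone, 1 without the arrays numbered 3 and 0 to 3 with single arrays left out. For both doses against both controls (4) it was 2 with 1 probe set per gene, 0 in a fit of the compared groups alone, and 2 to 4 with single arrays left out. For activated against resting cells under DMSO (2) it was 1 with a constant of 1, 0 with the compared groups alone, 4 without the arrays numbered 3 and 1 to 3 with single arrays left out; under 0.25 µM (3) it was 2 with the compared groups alone and 0 to 3 with single arrays left out. A fit of the compared groups alone has fewer arrays to estimate the spread. With a constant of 1, Tox 1425484_at lost its call for both doses against both controls (adjusted p = 0.0549). It also lost its calls between states, under DMSO (adjusted p = 0.0522) and under 0.25 µM (adjusted p = 0.057). With the replicate block the dose step in resting cells had 1 in place of 0. Between states, where the block is not a pairing, it let Tox 1425483_at pass under DMSO (adjusted p = 0.0496) and Tox4 1436049_at under 0.25 µM (adjusted p = 0.0368), with 7181 probe sets in place of 4723 under 0.25 µM; it changed no call among the TOX family other than those given here and in the results. The Tox2 difference of 1.77 ran from 1.64 to 1.92 with a replicate number left out and from 0.98 to 2.57 with constants of 64 and 1. Over all settings the probe sets called at 0.5 µM in resting cells numbered 25 to 1344 (339), for both doses 292 to 1386 (450), at 0.25 µM 0 to 82 (18), in the dose step 0 to 203 (19), in activated cells at 0.25 µM 0 to 86 (17), and between states 3799 to 9396 under DMSO (7124) and 2260 to 7181 under 0.25 µM (4723). The setting without the arrays numbered 3 was chosen after seeing the data. Signal limits Tox3 and Tox2 1457757_at, which lie near the added constant of 16. It also limits Tox2 1440156_s_at, which lay under 16 on 2 arrays. Over all settings its log2 change in resting cells ran from 0.78 to 1.79 for both doses against both controls. At 0.5 µM against Control-768 it ran from 1.11 to 2.36, with adjusted p = 0.0543 for a constant of 1.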
